A study of Mus musculus with 4 samples.

Results

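The genes of the T cell receptor loci were followed in RNA from lymphoid tissue inducer (LTi) cells of C57BL/6 mice, measured by sequencing. LTi cells are lymphotoxin-making innate lymphoid cells, here taken from the lamina propria of the small intestine by sorting. They were chosen by gene symbol: every gene of the deposited table named as a variable, diversity, joining or constant gene of the alpha, beta, gamma or delta locus (Tra, Trb, Trg or Trd, with the case of the letters kept) was taken, whatever its level. This gave 205 of the 27179 genes, of which 153 belong to the alpha locus (103 variable, 49 joining and 1 constant), 39 to the beta locus (22 variable, 2 diversity, 13 joining and 2 constant), 9 to the delta locus (4 variable, 2 diversity, 2 joining and 1 constant) and 4, all joining segments, to the gamma locus. Another 29 genes of these loci carry other spellings in the table, among them the gamma variable and constant genes (Tcrg-V and Tcrg-C), and are given beside the chosen genes where they are used. The 2 Gata3-KO libraries came from Gata3fl/flVavCre mice. VavCre makes the Cre recombinase in cells of the blood lineages, T and B cells included, and Gata3 encodes a transcription factor needed by T cells and by many innate lymphoid cells. The 2 Ctrl libraries came from Gata3+/+ mice, for which the labels name no Cre. All cells were sorted as live, lineage-negative, CD127+ and CCR6+ cells without KLRG1, NK1.1 or NKp46. The sources used here give neither the lineage markers nor the animals' ages, nor whether replicates were separate animals, so p-values measure only how far these libraries vary, which may be technical variation.

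T cell receptors are made from gene pieces. In the thymus the RAG1 and RAG2 proteins join a variable to a joining segment at the alpha and gamma loci, with a diversity segment in between at the beta and delta loci, and the transcript is then spliced to a constant gene. Alpha pairs with beta and gamma with delta, and each pair is carried to the cell surface by the CD3 chains. The delta locus lies inside the alpha locus, so that joining a variable to an alpha joining segment removes the delta genes between them. Unrearranged loci are transcribed as well: reads on a constant or joining gene alone do not show a rearranged receptor, and the deposited gene values hold no reads across joints. Innate lymphoid cells do not use a T cell receptor.

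Diversity and joining segments are short, which sets how the counts on them can be read. The sequences below are the reference segments (GRCm38, plus strand) that carry the differences between libraries described further on. The 2 beta diversity segments are printed whole in capitals. In the joining segments, capitals mark a match to the codons TTN GGN NNN GG (N is any base), a pattern that covers the Phe-Gly-X-Gly turn of joining segments and also allows Leu in place of Phe.
Trbd1, chr6:41533201-41533212: GGGACAGGGGGC
Trbd2, chr6:41542163-41542176: GGGACTGGGGGGGC
Trbj1-1, chr6:41533864-41533911: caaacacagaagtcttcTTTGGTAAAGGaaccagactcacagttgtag
Trbj1-2, chr6:41534001-41534048: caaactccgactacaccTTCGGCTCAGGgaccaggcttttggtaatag
Trbj1-4, chr6:41534811-41534861: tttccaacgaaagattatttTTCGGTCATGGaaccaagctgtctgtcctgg
Trbj2-1, chr6:41542754-41542803: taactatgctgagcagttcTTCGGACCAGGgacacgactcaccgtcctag
Trbj2-3, chr6:41543223-41543271: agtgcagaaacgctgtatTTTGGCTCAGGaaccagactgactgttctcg
Trbj2-7, chr6:41543810-41543856: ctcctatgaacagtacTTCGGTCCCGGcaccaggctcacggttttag
Trdj1, chr14:54123138-54123188: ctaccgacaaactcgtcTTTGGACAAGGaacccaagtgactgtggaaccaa
Trgj4, chr13:19342152-19342212: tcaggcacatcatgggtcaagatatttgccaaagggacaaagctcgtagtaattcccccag
The match was found in 55 of the 68 joining segments (80.9%) on the coding strand and in 0 on the other strand: in 42 of 49 alpha, 11 of 13 beta, 2 of 2 delta and 0 of 4 gamma segments. Trbj1-1 and Trbj1-2, neighbours in the first beta cluster, are identical at 60.4% of 48 aligned bases. Other members are close copies: Trbc1 and Trbc2 are identical at 95.3% of 512 aligned bases, Trbv13-2 and Trbv13-3 at 90.6% of 340 bases, and Trgj1 and Trgj2 at 93.3% of 60 bases. How reads matching several genes were counted is not stated, so values within such pairs are uncertain.

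The Gata3-KO libraries held 24315878 and 23973995 reads and the Ctrl libraries 14294708 and 12670034 reads, so 3 reads amounted to 0.123 and 0.125 reads per 1000000 (CPM) in Gata3-KO and 0.21 and 0.237 CPM in Ctrl. Gata3 itself stood at 34.5 and 23.3 RPKM in Gata3-KO, against 84.3 and 50.7 RPKM in Ctrl (RPKM are CPM per kilobase of gene length). The floxed exons are not stated, so reads outside them are included. The genes of the sorted proteins CD127 (Il7r, 45.7 to 143 RPKM) and CCR6 (Ccr6, 63.3 to 176 RPKM) were read in all 4 libraries. Transcripts of other cells were present too, more of them in Gata3-KO: immunoglobulin genes took 12.8% and 5.17% of the Gata3-KO reads, against 0.758% and 1.87% of the Ctrl reads. The summed level of 16 epithelial markers was 3594 and 5268 CPM in Gata3-KO and 951 and 579 CPM in Ctrl. Their part in the results below was not tested. In RNA from whole sorted populations, a change in the number of cells of a type and a change in RNA per cell cannot be told apart.

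Reads lay on 99 of the 205 genes (41 variable, 3 diversity, 51 joining and 4 constant), and 106 had none in any library. The genes together held 6972 and 3046 reads in Gata3-KO, or 287 and 127 CPM, against 2658 and 1178 reads in Ctrl, or 186 and 93 CPM, so the groups overlapped. Most of these reads lay on the 4 constant genes, at 196 and 82.8 CPM in Gata3-KO and 109 and 62.1 CPM in Ctrl. Gata3-KO replicate 1 stood apart in composition from the other 3 libraries. It had the highest alpha constant, beta variable, delta joining and delta constant levels of the 4. Its beta joining level was the lowest, but at 18.4 CPM it was close to the 19.4 CPM of Ctrl replicate 2. Several results that rest on Gata3-KO replicate 1 are therefore given with and without it.

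**Figure D1:**
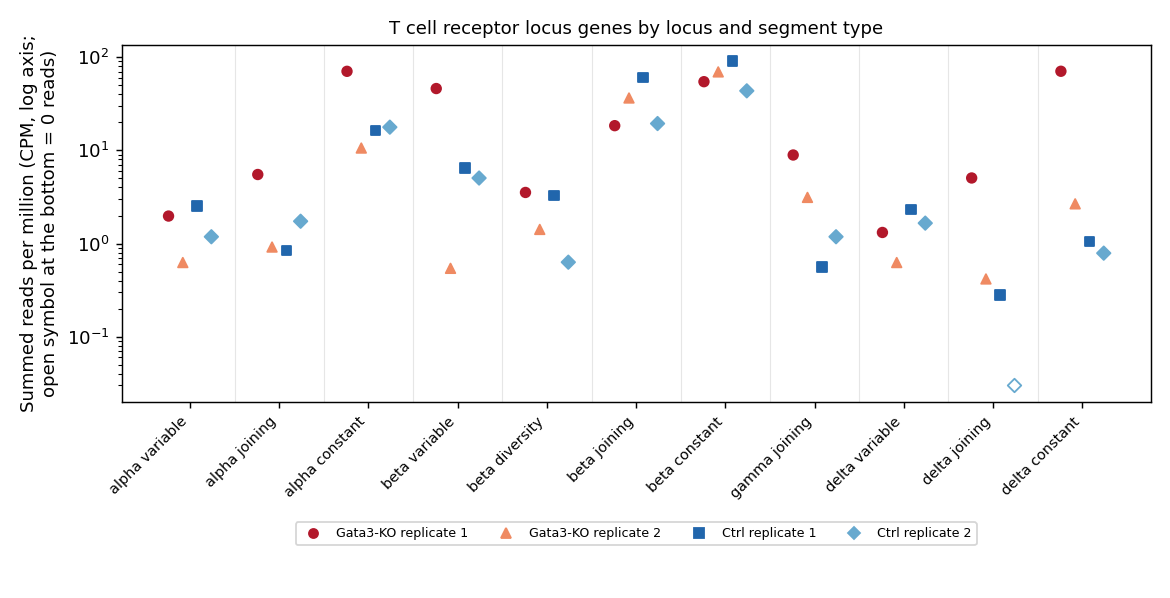
Summed CPM (log axis) of the T cell receptor locus genes by locus and segment type, with 1 point per library; the open symbol at the bottom stands for 0 reads. Gata3-KO replicate 1 (70.7 CPM delta constant, 46.1 CPM beta variable) lies apart from the other libraries, and gamma joining segments are higher in both Gata3-KO libraries than in both Ctrl libraries.

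At the beta locus, the constant genes overlapped between the genotypes on the deposited scale; after median-ratio scaling both were lower in each Gata3-KO library than in each Ctrl library, and neither passed the test (adjusted p = 0.565 for Trbc2 and 0.286 for Trbc1 in limma). Trbc2 (chromosome 6: 41546730 to 41548181), the constant gene behind the second joining cluster, had 74.6 and 88.2 RPKM in Gata3-KO, against 78.6 and 53.1 RPKM in Ctrl. Trbc1 (41538219 to 41539665), behind the first cluster, had 30.5 and 45.6 RPKM in Gata3-KO, against 97.3 and 30.7 RPKM in Ctrl, where replicate 1 was the highest of the 4 libraries. On the deposited scale neither passed the test (limma with Benjamini-Hochberg adjustment over 14318 genes): the log2 difference, Gata3-KO minus Ctrl, was 0.32 ± 0.30 (SE, adjusted p = 0.513) for Trbc2 and -0.54 ± 0.57 (adjusted p = 0.56) for Trbc1. Trbc1 took 29% (95% exact binomial interval 26.6 to 31.5) and 34.1% (31.8 to 36.4) of the reads on both constant genes in Gata3-KO, against 55.3% (52.5 to 58) and 36.6% (32.6 to 40.8) in Ctrl. These intervals cover counting error only and take every read as independent. The libraries carry no molecular identifiers, so reads copied from the same molecule cannot be told apart. The intervals may therefore be too narrow even for counting error. The spread between the Ctrl replicates was larger than the intervals.

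The beta joining segments split the libraries in another way. Together they had 18.4 and 36.5 CPM in Gata3-KO, against 60.8 and 19.4 CPM in Ctrl, so the groups overlapped. Segments of the first cluster, Trbj1-1 to Trbj1-7, took 32.1% (interval 27.8 to 36.7) of joining reads in Gata3-KO replicate 1 and 70.6% (67.5 to 73.6) in Gata3-KO replicate 2, against 81.4% (78.6 to 83.9) and 65.9% (59.6 to 71.8) in Ctrl. Gata3-KO replicate 2 thus lay between the Ctrl libraries, and Gata3-KO replicate 1 far below them. Trbj1-1, printed above, had 4 and 84 reads in Gata3-KO, against 104 and 28 in Ctrl. Trbj1-2 had 9 and 118 reads in Gata3-KO, against 119 and 31 in Ctrl. In CPM, Gata3-KO replicate 1 was the lowest of the 4 libraries for 6 of the 7 segments of the first cluster, and Ctrl replicate 2 for Trbj1-4. All 7 had a log2 difference below 0, between -2.23 (Trbj1-1) and -0.36 (Trbj1-4), and none passed the test (adjusted p = 0.367 to 0.783 in limma). For Trbj1-1 the difference was -0.20 without Gata3-KO replicate 1 and -4.26 without Gata3-KO replicate 2.

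Within the clusters, reads in Gata3-KO replicate 1 were concentrated on few segments. Trbj1-4 held 38.9% (30.9 to 47.4) of its first-cluster reads and 13.1% (10.5 to 16) of those of Gata3-KO replicate 2, against 14.3% (11.8 to 17.1) and 14.2% (9.22 to 20.5) in Ctrl. In the second cluster, Trbj2-3 and Trbj2-7 held 76.3% (71.1 to 81) and 32.3% (26.6 to 38.4) of the reads in Gata3-KO, against 33.3% (26.1 to 41.2) and 26.2% (17.2 to 36.9) in Ctrl. Trbj2-3 had 112 and 45 reads in Gata3-KO, against 19 and 9 in Ctrl, and in CPM the groups did not overlap. Its log2 difference was 1.55 ± 0.51 (SE, adjusted p = 0.11 in limma), and after median-ratio scaling the groups overlapped. It was 0.91 without Gata3-KO replicate 1 and 2.19 without Gata3-KO replicate 2. Trbj2-1 had 25 and 126 reads in Gata3-KO and 88 and 41 in Ctrl, with Gata3-KO replicate 1 the lowest. The other second-cluster segments (Trbj2-2, Trbj2-4 and Trbj2-5) had 1 to 25 reads in every library.

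The diversity segments followed the same split. Trbd1, the short segment in front of the first cluster, had 4 and 29 reads in Gata3-KO, against 44 and 5 in Ctrl. Trbd2, in front of the second cluster, had 82 and 5 reads in Gata3-KO, against 3 and 3 in Ctrl. Trbd1 therefore took 4.65% (1.28 to 11.5) and 85.3% (68.9 to 95) of diversity reads in Gata3-KO, against 93.6% (82.5 to 98.7) and 62.5% (24.5 to 91.5) in Ctrl, the last of them from 8 reads. A read on a 12-base segment must reach into its flanks or joints, so these reads were not contained in the segment. Trbd1, with a log2 difference of -1.27 ± 1.61 (SE), did not pass the test (adjusted p = 0.655 in limma), and Trbd2 did not meet the minimum level for it.

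**Figure D2:**
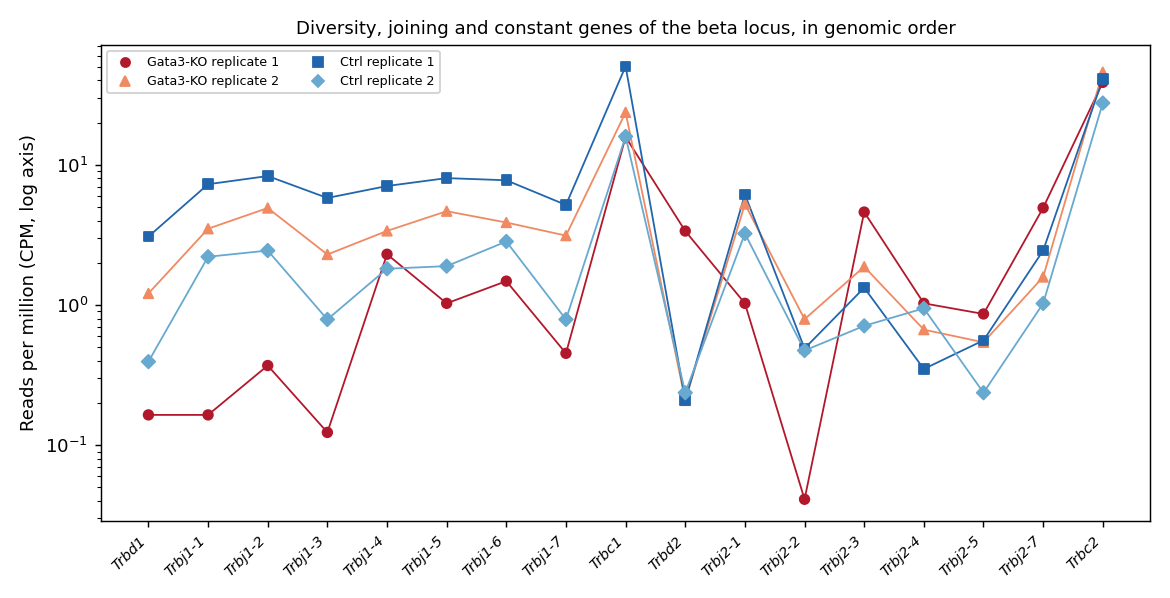
CPM (log axis) of the diversity, joining and constant genes of the beta locus in genomic order, with 1 line per library. Gata3-KO replicate 1 is lowest from Trbd1 to Trbj1-3 and highest at Trbd2 (82 reads), Trbj2-3 (112 reads) and Trbj2-7 (120 reads), while Trbd2 has 3 to 5 reads in the other 3 libraries.

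Variable segments of the beta locus were read mainly in Gata3-KO replicate 1. They summed to 46.1 and 0.542 CPM in Gata3-KO, against 6.44 and 5.05 CPM in Ctrl, so the Gata3-KO libraries were the highest and the lowest of the 4. As a share of all beta locus reads this was 37.6% (35.8 to 39.3) and 0.502% (0.268 to 0.857) in Gata3-KO, against 3.98% (3.22 to 4.85) and 7.36% (5.71 to 9.3) in Ctrl. The ratio of the group means was 2.02 on the log2 scale with all libraries and -3.40 without Gata3-KO replicate 1.

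Of the 22 beta variable segments, 15 had reads. Trbv13-2 had 542 and 2 reads in Gata3-KO, against 30 and 15 in Ctrl. Trbv12-2 had 351 and 1 reads in Gata3-KO, against 11 and 4 in Ctrl. Trbv3 had 192 and 0 reads in Gata3-KO, against 10 and 10 in Ctrl. These 3 segments held 96.8% (95.6 to 97.7) and 23.1% (5.04 to 53.8) of beta variable reads in Gata3-KO, against 55.4% (44.7 to 65.8) and 45.3% (32.8 to 58.3) in Ctrl. None passed the test, with log2 differences of 0.68 ± 2.35 for Trbv13-2, 1.48 ± 2.09 for Trbv12-2 and 0.63 ± 1.77 for Trbv3 (SE, adjusted p = 0.881, 0.688 and 0.849 in limma). Trbv13-3, a neighbour of Trbv13-2, had 7 and 0 reads in Gata3-KO and 14 and 10 in Ctrl. Its groups did not overlap, and its log2 difference of -1.40 ± 0.39 missed the threshold (SE, adjusted p = 0.076 in limma). Trbv12-1 had 11 and 10 reads in Gata3-KO and 8 and 0 in Ctrl, and was the only beta variable segment with more than 2 reads in Gata3-KO replicate 2.

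**Figure D3:**
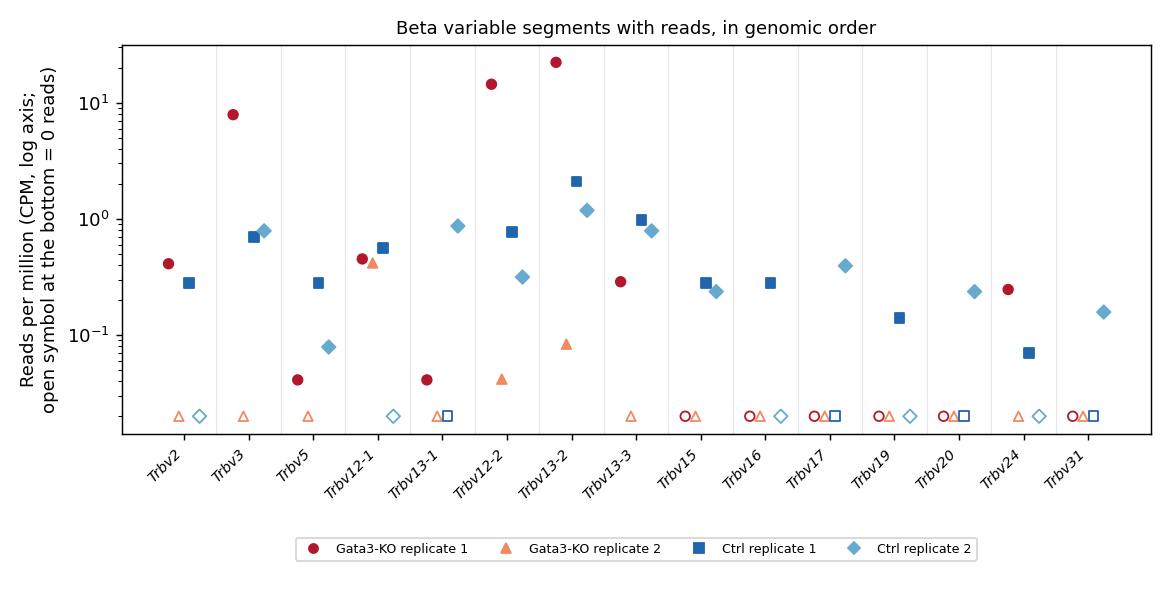
CPM (log axis) of the 15 beta variable segments with reads, in genomic order, with 1 point per library; open symbols at the bottom stand for 0 reads. Trbv3, Trbv12-2 and Trbv13-2 are highest in Gata3-KO replicate 1, and 12 of the 15 segments have 0 reads in Gata3-KO replicate 2.

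The number of different variable segments was lowest in Gata3-KO replicate 2. Over all 129 variable segments of the 205 genes, 19 and 9 had a read in Gata3-KO, against 22 and 19 in Ctrl. At the depth of the shallowest library the expected numbers were 16 and 7.03 in Gata3-KO, against 21.2 and 19 in Ctrl. With at least 3 reads required they were 12 and 4 in Gata3-KO, against 13 and 11 in Ctrl. Gata3-KO replicate 1 was thus near the Ctrl libraries by each of these counts and Gata3-KO replicate 2 below them.

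At the alpha locus most reads lay on the constant gene. Trac (chromosome 14: 54220521 to 54224198) had 76.1 and 11.4 RPKM in Gata3-KO, against 17.7 and 19.2 RPKM in Ctrl, so the Gata3-KO libraries were the highest and the lowest. Its log2 difference was 0.67 ± 0.90 (SE, adjusted p = 0.658 in limma), and -0.64 without Gata3-KO replicate 1. Of 103 variable segments 23 had reads, which summed to 48 and 15 reads in Gata3-KO and 36 and 15 in Ctrl. They were scattered: no alpha variable segment had reads in both Gata3-KO libraries and both Ctrl libraries except Trav13n-4, with 4 and 1 reads in Gata3-KO and 9 and 2 in Ctrl. Trav15-1-dv6-1, a segment that can join to delta as well as alpha segments, had 34 and 0 reads in Gata3-KO and 0 in both Ctrl libraries. Names with d and n mark near-identical copies of parts of the alpha locus, so single alpha variable segments cannot be held apart with certainty.

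Alpha joining segments had 5.51 and 0.918 CPM in Gata3-KO, against 0.839 and 1.74 CPM in Ctrl. Reads were on 24 and 9 of the 49 segments in Gata3-KO, against 7 and 10 in Ctrl. Traj59, at the delta-facing end of the joining array, had the most, with 24 and 11 reads in Gata3-KO and 1 in each Ctrl library. Traj27 came next with 23 and 1 reads in Gata3-KO and 0 and 3 in Ctrl. Of the alpha locus genes only Trac had enough reads to enter the test.

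Delta locus reads were almost all from Gata3-KO replicate 1. Trdc (chromosome 14: 54142851 to 54146108), the delta constant gene, had 63.9 and 2.42 RPKM in Gata3-KO, against 0.95 and 0.714 RPKM in Ctrl. The groups did not overlap, and the log2 difference was 3.03 ± 1.63 (SE, adjusted p = 0.311 in limma) with all libraries, 0.90 without Gata3-KO replicate 1 and 5.15 without Gata3-KO replicate 2. On the same length scale Trac, at 76.1 RPKM in Gata3-KO replicate 1, stood near Trdc in that library and well above it in each of the other 3. Trdj1, the delta joining segment printed above, had 113 and 10 reads in Gata3-KO, against 2 and 0 in Ctrl. Trdj2 had 10 and 0 reads in Gata3-KO and 2 and 0 in Ctrl. The delta diversity segments had at most 2 reads in a library.

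Summed delta variable segments ran against the constant gene, at 1.32 and 0.626 CPM in Gata3-KO and 2.31 and 1.66 CPM in Ctrl. Trdv4 did so, and Trdv5 did not. Trdv4 had 5 and 13 reads in Gata3-KO, or 0.596 and 1.57 RPKM, against 33 and 20 reads in Ctrl, or 6.69 and 4.58 RPKM. The groups did not overlap, and the log2 difference of -1.69 ± 0.39 (SE, adjusted p = 0.0512 in limma) was just short of the threshold. Trdv5, which lies behind Trdc and in the opposite direction, had 25 reads in Gata3-KO replicate 1 and 0 in the other 3 libraries. The variable segments made up 1.71% (1.17 to 2.4) and 16.5% (9.53 to 25.7) of delta reads in Gata3-KO, against 61.1% (46.9 to 74.1) and 67.7% (48.6 to 83.3) in Ctrl. These shares also depend on the Trdc reads, 1718 and 64 in Gata3-KO, against 15 and 10 in Ctrl.

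The gamma locus held the one gene of the 205 that passed the test. Trgj4, the joining segment of the fourth gamma cluster, rose in Gata3-KO, with 120 and 56 reads or 80.9 and 38.3 RPKM, against 6 and 7 reads or 6.88 and 9.06 RPKM in Ctrl. The log2 difference was 2.67 ± 0.41 (SE, adjusted p = 0.0237 in limma), and 2.14 without Gata3-KO replicate 1, so both Gata3-KO libraries carried it. The call was lost after median-ratio scaling (2.12, adjusted p = 0.0898), where the groups still did not overlap. Over its alternatives the adjusted p ranged between 0.0253 and 0.357. The other gamma joining segments were lower in reads. Trgj1 had 21 and 16 reads in Gata3-KO and 1 and 6 in Ctrl, with a log2 difference of 1.64 ± 0.68 (SE, adjusted p = 0.173 in limma). It was 0.62 without Ctrl replicate 1 and 2.66 without Ctrl replicate 2, and the groups overlapped after median-ratio scaling. Trgj2 had 71 and 1 reads in Gata3-KO and 1 and 2 in Ctrl, and Trgj3 had 5 and 2 reads in Gata3-KO and 0 in both Ctrl libraries.

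Gamma genes under other spellings passed the test in both directions. Tcrg-C4, the constant gene next to Trgj4, was called too: it rose to 71.2 and 33.7 RPKM in Gata3-KO, against 7.11 and 8.16 RPKM in Ctrl (log2 difference 2.54 ± 0.40, SE, adjusted p = 0.0242 in limma; 0.093 after median-ratio scaling). Tcrg-V5 fell to 3.26 and 2.08 RPKM in Gata3-KO, against 42.1 and 38.9 RPKM in Ctrl (log2 difference -3.52 ± 0.31, SE, adjusted p = 0.00905; 0.0256 after median-ratio scaling). Tcrg-V5 was thus lower in both Gata3-KO libraries while the constant genes were higher or overlapping. Tcrg-C1 had 30.9 and 19.5 RPKM in Gata3-KO and 13.5 and 17.5 RPKM in Ctrl. Tcrg-C2 had 73.3 and 3.57 RPKM in Gata3-KO and 2.64 and 1.73 RPKM in Ctrl, and Tcrg-V1 58.8 and 4.09 RPKM in Gata3-KO and 1.21 and 0.682 RPKM in Ctrl. For these last 2 genes Gata3-KO replicate 1 was again far above the other libraries. The log2 difference of Tcrg-C2 was 0.54 without Gata3-KO replicate 1 and 4.56 without Gata3-KO replicate 2. That of Tcrg-V1 was 1.40 and 4.95. One beta variable gene under another spelling, TRBV1, fell as well, with 0 and 1 reads in Gata3-KO and 12 and 9 in Ctrl (log2 difference -1.60 ± 0.28, SE, adjusted p = 0.0296 in limma; 0.058 after median-ratio scaling and 0.143 in limma-voom).

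**Figure D4:**
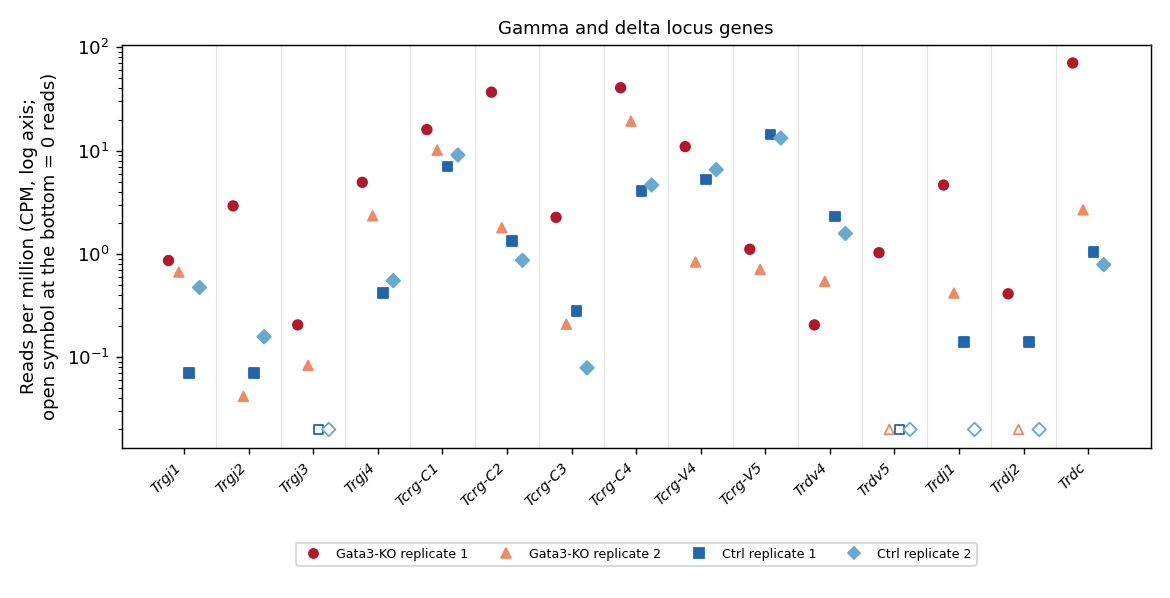
CPM (log axis) of gamma and delta locus genes, with 1 point per library; open symbols at the bottom stand for 0 reads, and Tcrg names are genes under other spellings. Trgj4 and Tcrg-C4 are higher and Tcrg-V5 and Trdv4 lower in both Gata3-KO libraries than in both Ctrl libraries, while Trdc and Tcrg-C2 are highest in Gata3-KO replicate 1.

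Across the 205 genes, 24 had enough reads to be tested (1 alpha, 19 beta, 2 gamma and 2 delta) and 181 did not. Of the 24, 1 was higher (Trgj4) and 0 lower at an adjusted p of 0.05, and 4 had an unadjusted p under 0.05. Over all 14318 genes tested 8.9% were called, 8.22% higher and 0.684% lower in Gata3-KO. The share called of the 24, 4.17%, was not above this background. It leaves out the 8 tested receptor genes under other spellings, of which 1 was higher (Tcrg-C4) and 2 lower (Tcrg-V5 and TRBV1). After median-ratio scaling 0 of the 24 were called, against 1.03% of all genes tested. The median log2 difference was -0.02 over the 24 genes and 0.43 over all genes tested. The median gene thus lay 0.43 log2 units higher in Gata3-KO on the deposited scale. Relative to it, the log2 difference was 2.24 for Trgj4, -2.12 for Trdv4 and -0.11 for Trbc2. The deposited scale divides by library totals, of which Slc29a3 took 7.87% and 7.61% in Gata3-KO, against 17.2% and 27.1% in Ctrl. Slc39a6 took 2.54% and 2.25% in Gata3-KO, against 5.66% and 8.46% in Ctrl. The part of these genes in the shift of the median gene was not tested. Groups did not overlap for 6 of the 24 genes: Trgj1, Trgj4, Trdc and Trbj2-3 were higher and Trdv4 and Trbv13-3 lower in Gata3-KO, while 53.9% of all genes tested were separated upward and 7.54% downward. After median-ratio scaling 2 of the 24 were separated upward and 7 downward, against 30.1% and 25.1% of all genes.

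Other genes of the receptor pathway, and genes of other cell types, were counted by list. These counts stand beside 8.22% higher and 0.684% lower of all genes tested, whose median log2 difference was 0.43. The list of the CD3 and T cell receptor complex holds the CD3 chains, which carry the receptor and signal from it. It also holds Trat1 and Ptcra, which are not CD3 chains. Of the 5 tested genes of this list, Trat1 included, 3 were higher and 0 lower in Gata3-KO, with a median log2 difference of 2.60. Cd247, the zeta chain, had 9.51 and 10.3 RPKM in Gata3-KO, against 0.76 and 0.823 RPKM in Ctrl (adjusted p = 0.0171 in limma). Cd3g had 202 and 53 RPKM in Gata3-KO, against 4.65 and 5.63 RPKM in Ctrl (adjusted p = 0.0278), and Cd3e was called as well. Cd3d, of the same complex, had 62 and 2.35 RPKM in Gata3-KO and 2.58 and 3.86 RPKM in Ctrl, with Gata3-KO replicate 2 the lowest of all. After median-ratio scaling 1 of the 5 was called. Ptcra, the partner of the beta chain in thymocytes, had no reads.

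Of 20 tested genes of proximal receptor signalling, 5 were higher and 2 lower. Their median log2 difference was 0.58, against 0.43 over all genes tested. Cd2, an adhesion receptor, had 22.4 and 23 RPKM in Gata3-KO, against 2.32 and 1.93 RPKM in Ctrl (adjusted p = 0.0119 in limma). Cd4, which gut LTi cells can carry, was lower, and Cd8b1 higher. Of 14 genes of gamma-delta and interleukin-17-making T cells, some of which LTi cells also express, 2 (Cd163l1 and Il17a) were higher and 0 lower. Cd163l1 had 432 and 561 RPKM in Gata3-KO, against 16.4 and 10.7 RPKM in Ctrl (adjusted p = 0.00429 in limma). Of 9 genes of intraepithelial and cytotoxic T cells 0 were called, and their summed level was 469 and 119 CPM in Gata3-KO, against 77 and 199 CPM in Ctrl.

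Of 10 tested genes of antigen receptor recombination 1 was called, Dntt, the enzyme that adds bases at joints, at 3.11 and 1.61 RPKM in Gata3-KO, against 0 and 0.0741 RPKM in Ctrl (adjusted p = 0.0371 in limma; 0.0932 after median-ratio scaling). The 1 gene called of 10 stands beside 8.9% called of all genes tested. Rag1 had 6 and 55 reads and Rag2 1 and 25 reads in Gata3-KO, and neither had a read in Ctrl. Of 18 B and plasma cell genes 15 were higher and 0 lower, with sums of 104405 and 41574 CPM in Gata3-KO, against 6308 and 14833 CPM in Ctrl. Of 16 epithelial genes 11 were higher and 0 lower, and of 11 tested myeloid genes 3 were higher and 0 lower, with sums of 173 and 381 CPM in Gata3-KO and 74.4 and 84.3 CPM in Ctrl. Of 18 LTi cell genes 1 (Il17a) was higher and 2 (Il22 and Cd4) were lower. After median-ratio scaling 1 B and plasma cell gene, 5 epithelial genes and 1 myeloid gene were higher, and of receptor signalling genes 1 was higher and 2 were lower. The part of other cells in the receptor locus values was not tested.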

How the data were processed

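Per the labels' protocols, libraries followed Smart-seq2, which copies whole transcripts and marks neither single molecules nor the strand. Per the submitters' processing notes, the build was mm10 and the tools included Subread and featureCounts. Their settings, versions, the annotation and the treatment of reads that fit several genes are not stated. The deposited table gives log2(RPKM + 1) with 0.0001 added (unit worked out from the values), scaled to each library's total, so a value of 0.0001 means no reads. A segment of 12 to 66 bases counts reads that reach beyond it, which raises its RPKM against long genes, so RPKM was compared only within a gene or between long genes. Whole reads were recovered from the deposited log2 values by finding each library's total and each gene's length. In 100% of the 19047 genes with reads all 4 numbers were whole within 0.001 reads, but lengths were chosen to make them so. They summed to 98.8% and 98.7% of the library totals in Gata3-KO and 98.9% and 99.1% in Ctrl. CPM are recovered reads per 1000000 of the library total.

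Genes were tested if 2 libraries or more reached 0.5226 CPM and all 4 together 15 reads. The test was limma 3.58.1 (R 4.3.3; trend and robust) on log2(RPKM + 1), two-sided, with Benjamini-Hochberg adjustment over all 14318 and a threshold of 0.05. Fold changes on this scale understate changes of low genes. An exact permutation test of 2 against 2 libraries cannot go below p = 0.333, and sums over genes were described without a test. The limma step was run on simulated counts with the same spread beyond counting error set for all genes. That setting leaves out differences between replicates as large as those of Trdc. It therefore does not show how the test performs on these libraries. RefSeq matched 25275 identifiers, and segment coordinates are RefSeq's (GRCm38.p6). Segment sequences are those of the GENCODE transcripts on GRCm38, read with Python 3.11.15. The genes named are all constant genes, all tested segments, up to 3 further segments per locus with most reads, and per list up to 4 called genes; others were named with their values in view. Some genes that meet this rule are not reported here. The genes and lists were chosen with earlier results of these data known. Alternatives were median-ratio, upper-quartile and immunoglobulin-free scaling, a pseudocount of 0.1, a filter of 5 CPM or none, limma-voom, a replicate block and each library left out.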

Additional observations from a re-analysis of the deposited data

How the results depend on the processing

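Of the 205 chosen genes, Trgj4 was the one called. Of them, 0 were called after median-ratio or upper-quartile scaling, without a filter, or in limma-voom with or without median-ratio scaling. With a filter of 5 CPM 0 of the 205 were called, and Trgj4 was not tested. Scaling without immunoglobulin genes called 2 of the 205, Trgj4 and Trdv4 (adjusted p = 0.0484 in limma). Tcrg-V5, under another spelling, stayed called after median-ratio and upper-quartile scaling (adjusted p = 0.0256 and 0.0244 in limma). It was not called without a filter (0.088) or in limma-voom (0.0523). With a filter of 5 CPM, Tcrg-V5 and Tcrg-C4 were called. Over all genes, limma called 147 after median-ratio scaling (85 higher, 62 lower), 135 after upper-quartile scaling (73 higher, 62 lower), 846 with a pseudocount of 0.1, 0 without a filter (4336 at an unadjusted p under 0.05), and 217 in limma-voom, or 90 with median-ratio scaling, against 1275. With each library left out, 0 genes and 0 receptor genes were called (from 0 to 0), and 2408 to 3811 genes had an unadjusted p below 0.05; a lone library was assumed to vary like the others. Fewer samples enter those fits. The cause of these changes was not tested in any case.

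Whether the replicate numbers pair the samples is not known. Over genes, the deviations of same-numbered libraries from their group means correlated at -0.021. With 2 libraries a group, both pairs give this same value, so it cannot decide the question. The replicate block called 1000 genes and 2 of the 205 chosen genes, Trgj4 and Trbj2-3 (adjusted p = 0.0495 in limma). With median-ratio scaling it called 18 genes and 0 of the 205.

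Of 316 alternative values of the 24 tested genes of the 205, 274 kept direction and call. Another 10 lost the call, 2 gained a call and 30 changed sign. Only Trgj4 was called to begin with, so apart from it the 274 were uncalled genes that stayed uncalled. All 10 lost calls were those of Trgj4. It kept its call only with scaling without immunoglobulin genes, a pseudocount of 0.1 and the replicate block. Trbc2 turned to -0.26, -0.32, -0.27 and -0.26, and Trbj2-4 to -0.069, -0.13, -0.075 and -0.069, under median-ratio scaling, upper-quartile scaling, limma-voom with median-ratio scaling and the replicate block with it. Trbv3 turned to -0.57 with a pseudocount of 0.1, -0.92 in limma-voom and -1.64 in limma-voom with median-ratio scaling, and Trbv13-2 to -0.079 and -0.83 in these last 2. With a library left out, log2 differences ranged between -0.64 and 1.99 for Trac, -1.36 and 0.27 for Trbc1, 0.05 and 0.60 for Trbc2, -2.73 and 0.19 for Trbd1, -3.45 and 0.12 for Trbj1-2, -3.68 and 0.080 for Trbj1-3, -1.32 and 0.61 for Trbj1-4, -1.88 and 0.25 for Trbj1-5, -2.07 and 0.60 for Trbj1-7, -2.07 and 0.23 for Trbj2-1, -0.18 and 1.14 for Trbj2-4, -0.0038 and 1.61 for Trbj2-7, -1.10 and 4.06 for Trbv12-2, -2.19 and 3.55 for Trbv13-2, -1.65 and 2.92 for Trbv3, -0.18 and 4.48 for TRGV2 (Trgv2) and -2.33 and 0.85 for Tcrg-V4 (Trgv4).

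The log2 ratios of summed CPM ranged, with a library left out, between -0.69 and 2.05 for alpha constant, -0.49 and 2.10 for alpha joining, -1.56 and 0.13 for alpha variable, -0.56 and 0.51 for beta constant, -1.15 and 0.50 for beta joining, -3.40 and 3.005 for beta variable, 1.54 and 6.26 for delta constant, 1.58 and 5.18 for delta joining, -1.66 and -0.59 for delta variable and 1.84 and 3.43 for gamma joining genes. Ratios changed sign without Gata3-KO replicate 1 for alpha constant, alpha joining, beta variable and beta constant (0.04) genes, without Gata3-KO replicate 2 for alpha variable genes (0.09), and without Ctrl replicate 1 for alpha variable, beta constant and beta joining genes. Beta constant genes moved from -0.12 to -0.69 after median-ratio and -0.76 after upper-quartile scaling, and delta variable segments from -1.03 to -1.65 after upper-quartile scaling. Joining sums and sums with all spellings were added after seeing the data. The symbol rule finds no gamma variable or constant gene, so their planned sums gave no value. Requiring 3 reads left 12 and 4 variable segments in Gata3-KO, and 13 and 11 in Ctrl.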

Other observations

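The beta locus also holds trypsinogen genes between its variable segments, which encode a digestive enzyme of the pancreas. Prss2 had 16.4 and 126 RPKM in Gata3-KO, against 14.1 and 483 RPKM in Ctrl, and Try5 had 9.81 and 34.4 RPKM in Gata3-KO, against 0.873 and 114 RPKM in Ctrl. Replicate 2 was the higher library in each genotype, which is not the order of any receptor segment group of the locus: beta variable segments had 46.1 and 0.542 CPM in Gata3-KO, against 6.44 and 5.05 CPM in Ctrl.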
